A study of Rattus norvegicus with 9 samples.

Results

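The FOS and JUN families hold the core subunits of the transcription factor AP-1, and all 7 genes of both families (Fos, Fosb, Fosl1, Fosl2, Jun, Junb and Jund) were examined here in rat chondrocytes exposed to thrombin. The rows were taken by gene name. Each name matched 1 row, so that 7 of the 18924 genes in the table were members, and all 7 were among the 13856 genes that passed the filter on low counts. Chondrocytes are the matrix-forming cells of cartilage. The cells were primary cultures from rats of the strain labelled SD, grown in serum-containing medium and used at passage 1 or 2, and poly-A RNA was sequenced after 24 h in 3 groups of 3 libraries. All groups received rat plasma: RP had plasma alone, RPT had plasma and thrombin, and RPTi had plasma and thrombin together with an unnamed inhibitor. Doses were not analysed here. The labels do not say how many animals or cultures lie behind each group, so the spread on which the p-values rest is that between libraries and may be technical. No group had the inhibitor without thrombin, so the inhibitor's own effect and its effect on thrombin signalling cannot be told apart.

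AP-1 is a dimer of basic leucine zipper proteins. JUN proteins pair with each other or, more stably, with a FOS protein, whereas FOS proteins do not form stable dimers among themselves, and the dimer binds the short DNA element called TRE. Fos and Fosb carry transactivation domains and are classic immediate early genes, switched on within minutes of a stimulus and off again soon after, while Fosl1 and Fosl2 lack such a domain and stay on longer. ERK signalling is known to raise Fosl1 transcription and to stabilise its protein, Jun is activated by JNK, and Jund is known as a broadly expressed member that can oppose growth. In cartilage, AP-1 is known for driving collagenase and stromelysin genes.

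The libraries held 31877265 to 43962783 counts, so that 1 count equalled 0.0227 to 0.0314 CPM before TMM adjustment (CPM are counts scaled to a common library size, and the levels given below include the TMM factors), and the 7 genes together took 0.0268% to 0.0402% of all counts. The chondrocyte label was checked against 15 marker genes. They were all detected, with Col2a1 at 16198 ± 1148 CPM in RPT (SD, n = 3), the lowest of the 3 groups. Their summed level was 52631 to 53879 CPM in RP, 33285 to 35456 CPM in RPT and 81535 to 89072 CPM in RPTi. The 11 fibroblast markers were abundant too, at 16951 to 18319 CPM in RP, 10705 to 11659 CPM in RPT and 16891 to 18501 CPM in RPTi. This sum does not describe the single genes. By the test given below, 2 of the 11 rose and 5 fell with thrombin, against 13.6% and 15.2% of all genes. With the inhibitor 3 rose and 5 fell relative to RPT, against 20.4% and 21.1%. Compared with RP, 0 were higher and 5 lower in RPTi, against 11.9% and 12.3%. The 7 matched macrophage markers summed to 24.5 to 28.8 CPM in RP, 45.3 to 46.8 CPM in RPT and 25.3 to 29.5 CPM in RPTi, mostly from Cd14, while the leukocyte gene Ptprc had at most 4 counts in any library. The 6 endothelial markers summed to 3.42 to 4.31 CPM in RP, 6.93 to 6.98 CPM in RPT and 2.52 to 2.89 CPM in RPTi, with Cdh5 at 2 counts or fewer. In these 4 lists the range of RPT lay apart from those of RP and RPTi. The 9 muscle and fat markers summed to 31.0 to 33.4 CPM in RP, below the 38.4 to 42.2 CPM of RPT and the 41.3 to 42.8 CPM of RPTi, which overlapped. The part of these shifts in the AP-1 results was not tested, and in bulk RNA fewer cells of a type and less RNA per cell cannot be told apart.

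With thrombin, 4 of the 7 genes rose: Fosl1 3.35-fold, Junb 1.85-fold, Jun 1.69-fold and Fosl2 1.36-fold. Of all tested genes 13.6% rose in this comparison and 15.2% fell. A gene is said to rise or fall where its p-value from edgeR's quasi-likelihood test, adjusted by Benjamini-Hochberg over all 13856 tested genes, was below 0.05. None of the 7 fell, with 1 (Jund) lower at an unadjusted p below 0.05 and 0 by DESeq2. With the inhibitor added to thrombin, 3 of 7 fell (Fosl1, Jun and Junb, against 21.1% of all genes) and 1 rose (Jund, against 20.4%). Scaling by library totals alone moved these shares of all genes to 27.3% falling and 17.0% rising. Compared with plasma alone, thrombin plus inhibitor left Fosl2 and Jund higher (2 of 7, against 11.9% of all genes, or 9.51% by library totals) and Fosl1 lower (1 of 7, against 12.3%, or 16.5% by library totals). Each pair of these comparisons shares 1 group of libraries, so they are not independent of each other.

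**Figure D1:**
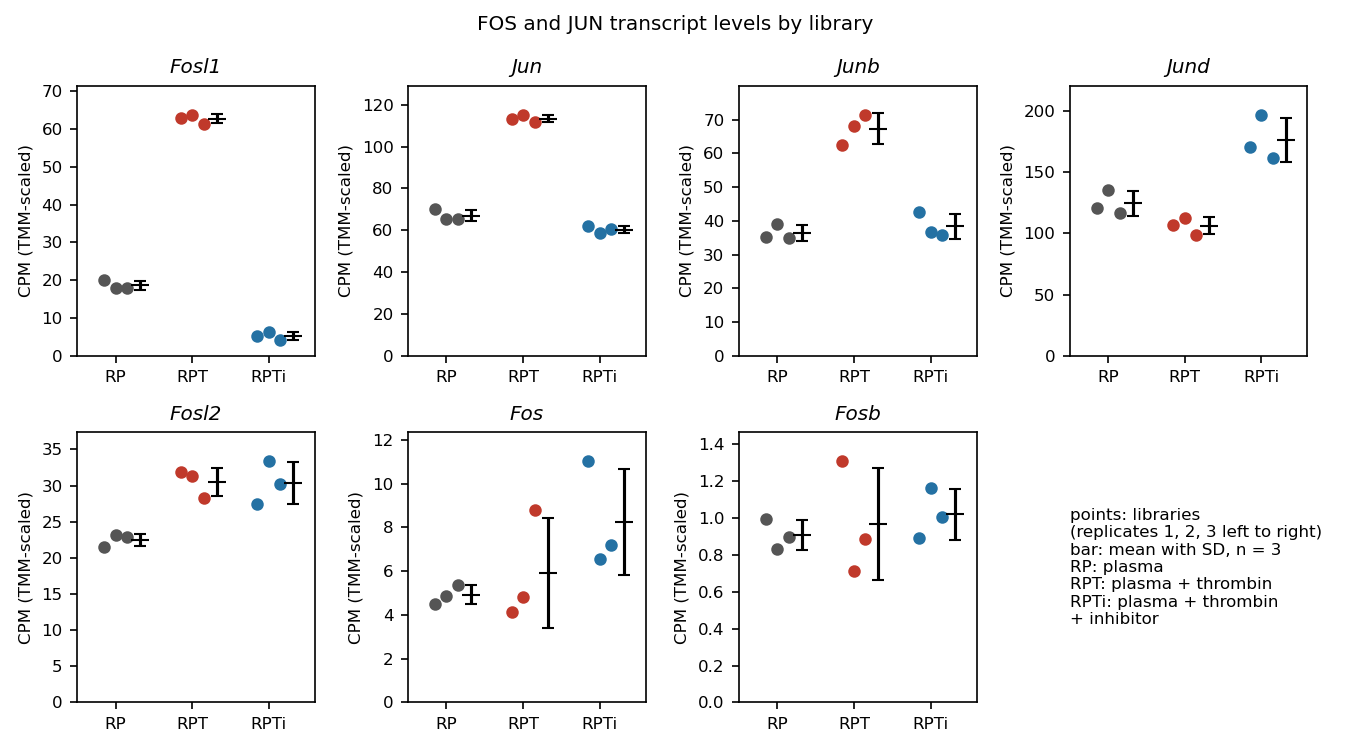
Level of each FOS and JUN gene in every library, in CPM scaled by TMM on an axis that starts at 0, with the mean and SD of 3 libraries beside the points. The RPT libraries of Fosl1 sit at 61.4 to 63.7 CPM and its RPTi libraries at 4.27 to 6.30 CPM, on either side of RP, whereas Jund is highest in RPTi.

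Promoter sequences of 5 members (Fosb, Fosl1, Fosl2, Junb and Jund) were matched by symbol in RefSeq (build GRCr8), and Fos and Jun had no entry. The 250 bases before the annotated start are printed below for the strongest responder, Fosl1, and for a pair of JUN genes that moved in opposite directions with the inhibitor. Capitals mark letters that match a searched motif on either strand: TRE (TGACTCA), the cyclic AMP element CRE (TGACGTCA), the CArG box bound by SRF, the TATA box (TATAAA), the CCAAT box and the GC box (GGGCGG). No 2 of these matches overlapped in the printed sequences.
Fosl1, chr1:212183635-212183884, plus strand: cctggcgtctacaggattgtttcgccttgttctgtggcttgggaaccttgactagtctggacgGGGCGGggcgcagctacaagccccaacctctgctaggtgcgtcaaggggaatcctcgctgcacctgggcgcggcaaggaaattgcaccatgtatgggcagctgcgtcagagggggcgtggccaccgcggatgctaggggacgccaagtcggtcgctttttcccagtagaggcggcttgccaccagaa
Junb, chr19:40080876-40081125, plus strand: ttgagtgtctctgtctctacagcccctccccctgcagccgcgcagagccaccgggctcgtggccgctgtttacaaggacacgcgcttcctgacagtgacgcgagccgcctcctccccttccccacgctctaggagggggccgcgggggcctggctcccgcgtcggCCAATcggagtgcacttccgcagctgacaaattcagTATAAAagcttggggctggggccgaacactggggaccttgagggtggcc
Jund, chr16:18769772-18770021, minus strand: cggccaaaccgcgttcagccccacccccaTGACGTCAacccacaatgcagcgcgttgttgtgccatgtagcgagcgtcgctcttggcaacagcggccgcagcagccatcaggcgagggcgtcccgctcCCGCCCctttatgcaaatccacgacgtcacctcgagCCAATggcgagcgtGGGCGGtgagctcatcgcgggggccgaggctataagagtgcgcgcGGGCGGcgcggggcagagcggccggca
Counted back from the start, the Fosl1 window had a GC box at bases -187 to -182. The Junb window had a TATA box at -49 to -44 and a CCAAT box at -85 to -81. The Jund window had a CRE at -221 to -214, a CCAAT box at -86 to -82 and 3 GC boxes. Among 33469 RefSeq rat promoters of the same length, 1.59% held a CRE, 12.9% a TATA box, 34.0% a CCAAT box and 30.5% a GC box. TRE (4.05% of promoters) and the CArG box (1.50%) had no match in the 5 member windows, which says only that these letters are not in these 250 bases.

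Fosl1 (ENSRNOG00000020552), which encodes a FOS protein without the transactivation domain of FOS, was the member with the widest range. Its 3 RP libraries were at 20.1, 18.0 and 18.0 CPM, its RPT libraries at 62.9, 63.7 and 61.4 CPM, and its RPTi libraries at 5.15, 6.30 and 4.27 CPM. The groups did not overlap in any pairing, in the order RPT, RP, RPTi. The rise with thrombin was 1.74 on the log2 scale (SE 0.10, adjusted p = 1.42e-07). With the inhibitor it was 12.0-fold lower than with thrombin alone (log2 fold change -3.59, SE 0.12, adjusted p = 4.9e-10). It then lay 3.59-fold below plasma alone (-1.84, SE 0.11, adjusted p = 2.55e-07). By absolute log2 fold change Fosl1 ranked 246, 58 and 177 of 13856 genes in these comparisons. The promoter printed above is that of this gene.

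Fosl2 (ENSRNOG00000052357), the nearest relative of Fosl1 among the members, was higher in both thrombin groups. It measured 21.5, 23.1 and 22.8 CPM in RP, 31.9, 31.3 and 28.3 CPM in RPT, and 27.5, 33.3 and 30.3 CPM in RPTi. Both thrombin groups lay above RP without overlap, and they overlapped each other. The rise over RP was 0.44 with thrombin (SE 0.08, adjusted p = 0.00189) and 0.43 with thrombin and inhibitor (SE 0.08, adjusted p = 0.00268). Between RPTi and RPT the difference was -0.01 on the log2 scale, with a 95% interval from -0.19 to 0.17 (adjusted p = 0.945). Fosl1, the other FOS gene without a transactivation domain, fell in that comparison, and the difference between these genes was not tested.

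Fos (ENSRNOG00000008015), the founding immediate early gene of the family, was low and scattered. Its levels were 4.50, 4.88 and 5.39 CPM in RP, 4.13, 4.80 and 8.81 CPM in RPT, and 11.0, 6.56 and 7.20 CPM in RPTi. The RPTi libraries lay above the RP libraries, and RPT replicate 3 lay apart from the other RPT libraries and within the RPTi range. No comparison passed: the log2 difference was 0.26 for RPT against RP (95% interval -0.31 to 0.83, adjusted p = 0.504), 0.49 for RPTi against RPT (-0.07 to 1.05, adjusted p = 0.152) and 0.75 for RPTi against RP (0.18 to 1.31, adjusted p = 0.0539). The estimates and calls turned on single libraries and on the settings. Without RPTi replicate 1, the highest library, the difference was 0.48 for RPTi against RP (adjusted p = 0.248) and 0.22 for RPTi against RPT (adjusted p = 0.556). Without RPT replicate 1 the latter was 0.28 (adjusted p = 0.433). Without RPT replicate 3, in contrast, RPT lay below RP (-0.14), RPTi lay above RPT by 0.89 (SE 0.21, adjusted p = 0.00637), and RPTi passed against RP at 0.75 (adjusted p = 0.0109). RPTi against RP also passed without RPT replicate 1 (adjusted p = 0.0376) and by DESeq2 (0.76, adjusted p = 0.0114). It passed too with no filter on low counts (adjusted p = 0.0233) and with only these 2 groups fitted (adjusted p = 0.0114). Leaving out RPT replicate 1 or RPT replicate 3 kept this estimate at 0.75 and lowered its SE from 0.26 to 0.23 and 0.18.

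Fosb (ENSRNOG00000046667), the other immediate early FOS gene, had the fewest counts of the 7 genes. These were 44, 28 and 34 counts in RP, 50, 23 and 29 in RPT, and 32, 36 and 36 in RPTi. All groups overlapped. The log2 difference between RPT and RP was 0.10 with a 95% interval from -0.51 to 0.70 (adjusted p = 0.833), so that differences inside that range were not excluded. The other comparisons were as wide, at 0.06 for RPTi against RPT (-0.55 to 0.67) and 0.16 for RPTi against RP (-0.45 to 0.77).

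Jun (ENSRNOG00000026293), the founding member of the JUN family, was highest with thrombin and no inhibitor (RPT). Its libraries measured 70.3, 65.6 and 65.2 CPM in RP, 113, 115 and 112 CPM in RPT, and 61.9, 58.5 and 60.6 CPM in RPTi. RPT lay above both other groups, and RPTi lay below RP, each without overlap. The rise with thrombin was 0.76 (SE 0.06, adjusted p = 1.4e-06) and the fall with the inhibitor was -0.91 (SE 0.06, adjusted p = 8.94e-08). Against plasma alone RPTi stood at -0.15 (95% interval -0.28 to -0.02), which did not pass with TMM scaling (adjusted p = 0.0796) and passed with library totals alone (-0.21, adjusted p = 0.0206).

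Junb (ENSRNOG00000042838), a JUN protein that can restrain Jun in some settings, was likewise highest in RPT. It measured 35.3, 39.2 and 34.8 CPM in RP, 62.4, 68.2 and 71.4 CPM in RPT, and 42.6, 36.7 and 35.9 CPM in RPTi. The RPT libraries stood apart, and the RP and RPTi libraries overlapped. Thrombin raised it by 0.89 (SE 0.09, adjusted p = 7.8e-06), and with the inhibitor it was lower by -0.81 (SE 0.09, adjusted p = 7.8e-06). Between RPTi and RP the difference was 0.08, with a 95% interval from -0.11 to 0.26 (adjusted p = 0.561).

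Jund (ENSRNOG00000019568), the most abundant member per length (FPKM), went the other way. Its libraries were at 121, 136 and 117 CPM in RP, 107, 113 and 98.9 CPM in RPT, and 171, 197 and 161 CPM in RPTi. The groups did not overlap, in the order RPTi, RP, RPT, which is the reverse of the order seen for Fosl1. In CPM, which is not scaled by length, Jun lay above Jund in all 3 RPT libraries. The difference between RPT and RP, -0.23 (95% interval -0.41 to -0.04), did not pass (adjusted p = 0.0625). It passed with no filter on low counts (adjusted p = 0.0428) and without RPTi replicate 2 (adjusted p = 0.0414). With the inhibitor Jund rose 1.66-fold over thrombin alone (0.73, SE 0.08, adjusted p = 1.84e-05) and 1.42-fold over plasma alone (0.50, SE 0.08, adjusted p = 0.000904). Its order across the groups was also that of the summed chondrocyte markers given above, and the relation between them was not tested.

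**Figure D2:**
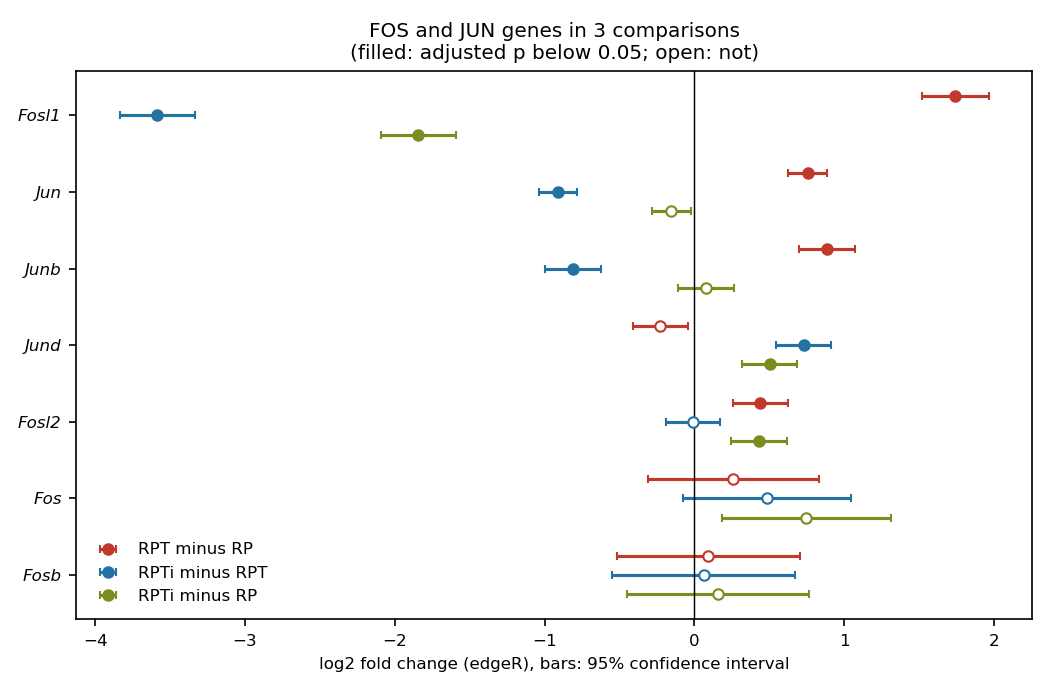
Log2 fold changes of the 7 genes in each comparison with their 95% confidence intervals, filled where the adjusted p was below 0.05. Jun and Junb lie near 0.76 and 0.89 for RPT against RP and near -0.91 and -0.81 for RPTi against RPT, while Jund lies at 0.73 in the latter.

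Because levels of different genes can be compared only per length, the makeup of the 2 families was described with the deposited FPKM values (fragments per kilobase of gene length, scaled to library depth). In RP the order was Jund (74.6 ± 5.48 FPKM; SD, n = 3), Fosl2 (30.5 ± 1.19), Jun (21.9 ± 0.877), Junb (20.6 ± 1.22), Fosl1 (11.3 ± 0.723), Fos (3.12 ± 0.301) and Fosb (0.245 ± 0.0221), and the ranges of Jun and Junb overlapped. In RPT, Jund stood first at 64.5 ± 4.27 FPKM. Fosl2 (41.9 ± 2.94), Junb (38.5 ± 2.24), Fosl1 (38.5 ± 0.865) and Jun (37.4 ± 0.627) formed a group in which each overlapped its neighbour. In RPTi, Jund reached 102 ± 10.3 FPKM and Fosl1 was at 3.06 ± 0.586, below Fos at 5.05 ± 1.46. Fosl2 (39.6 ± 3.87), Junb (20.9 ± 1.92) and Jun (19.0 ± 0.527) lay between them without overlap. Fos and Fosb were the lowest members in RPT, at 3.79 ± 1.60 and 0.265 ± 0.0868 FPKM, and Fosb was the lowest in RPTi at 0.265 ± 0.0356. The FPKM of Fosl2 rests on a gene model of only 744 bases, against 1589 to 3741 bases for the other members, so its place in this order depends on that model.

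The summed FPKM of the FOS family was 44.4 to 45.9 in RP, 81.9 to 86.4 FPKM in RPT and 45.7 to 51.4 FPKM in RPTi. RP and RPTi thus overlapped in total, through the highest RP library (45.9) and the lowest RPTi library (45.7) alone, while they differed in makeup. Most of the total in these groups was Fosl2, whose FPKM rests on a gene model of only 744 bases. The overlap of the totals therefore depends on that model. It depends on the scaling too, because the deposited FPKM carry no TMM factors. Those factors were 1.00 to 1.02 in RP and 0.968 to 0.977 in RPTi. Dividing by them would raise RPTi relative to RP, so the narrow overlap need not hold with TMM scaling. Fosl1 made up 23.9% to 27.4% of the family in the RP libraries, 45.2% to 45.8% of it in RPT and 5.35% to 7.14% in RPTi. Fosl2 made up 65.6% to 68.8%, 47.1% to 51.3% and 78.2% to 84.7% in the same groups. These ranges did not overlap between groups. Shares of raw counts, which do not use gene lengths, moved the same way. Fosl1 was at 38.3% to 42.7% in plasma alone, 61.8% to 63.4% with thrombin and 9.99% to 13.3% with the inhibitor. Fosl2 was at 45.7% to 49.4%, 28.5% to 31.8% and 61.7% to 70.8% of counts in the same groups. In RPT the larger share was thus that of Fosl1 by counts and that of Fosl2 by FPKM.

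The summed JUN family lay between 112 and 124 FPKM in RP, between 137 and 145 in RPT, and between 133 and 152 in RPTi, and the last 2 groups overlapped. Jund made up 62.8% to 65.1% of it in RP, 43.6% to 47.1% with thrombin and 69.8% to 74.8% with the inhibitor. Jun made up 17.1% to 19.9%, 26.1% to 27.0% and 12.1% to 14.4%. Junb stood at 17.3% to 17.7%, 25.9% to 29.6% and 13.1% to 16.4%. In both families the most abundant member in RP, Fosl2 or Jund, took a smaller share with thrombin and a larger one with the inhibitor. These shares are descriptions of the transcripts and were not tested.

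**Figure D3:**
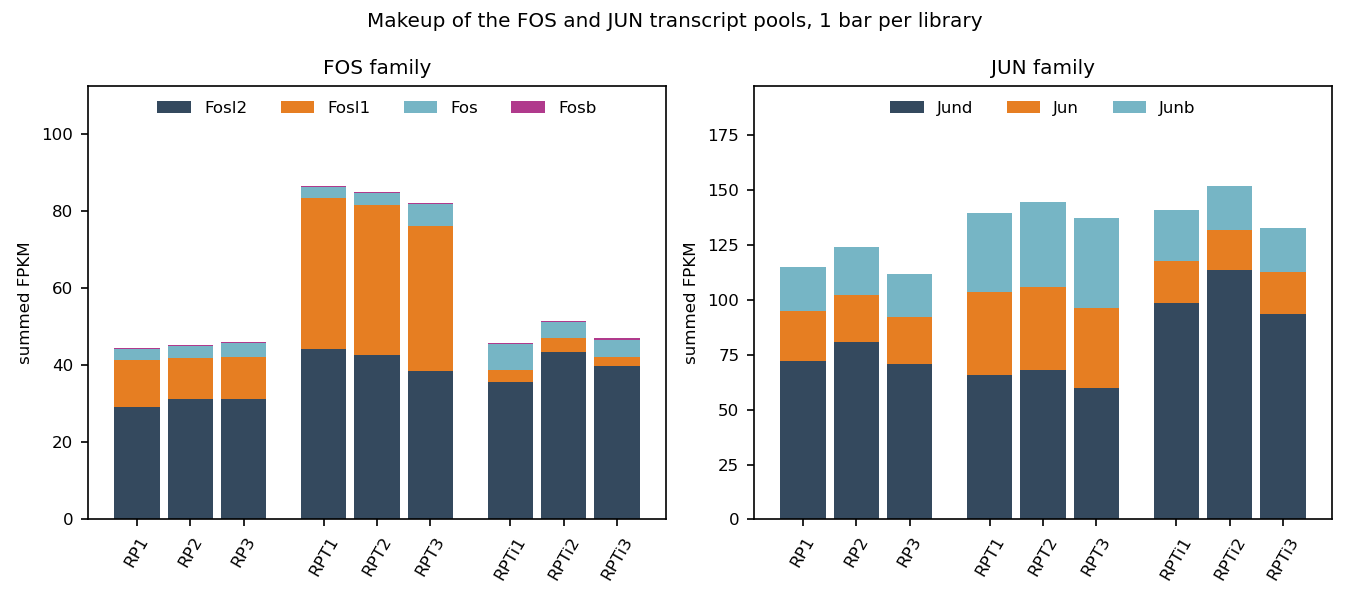
Summed FPKM of the FOS family (left) and the JUN family (right), 1 stacked bar per library, coloured by gene. The FOS bars of RPT reach 81.9 to 86.4 FPKM with Fosl1 as 45.2% to 45.8% of each, and in RPTi the Fosl1 segment shrinks to at most 7.14%.

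Genes of FOS and JUN partners and of other basic leucine zipper (bZIP) proteins moved in several directions. Of 17 tested bZIP partners and relatives, 8 rose and 2 fell with thrombin, against 13.6% and 15.2% of all genes, with a median log2 fold change of 0.37 against 0.00 over all genes (-0.00071). The circadian and interleukin-regulated repressor gene Nfil3 rose 1.87-fold, the amino acid response factor gene Atf4 1.40-fold and the small Maf gene Mafk 1.42-fold. With the inhibitor 5 rose and 6 fell relative to thrombin alone, where 20.4% of all genes rose and 21.1% fell. Atf3, a stress-induced partner of JUN proteins, measured 4.88 ± 0.134 CPM in RP, 6.22 ± 0.287 CPM in RPT and 17.9 ± 0.631 CPM in RPTi (SD, n = 3), a 2.88-fold rise over RPT. Jdp2, which encodes a repressor that dimerises with JUN proteins, rose 1.95-fold over RPT to 100.6 ± 3.54 CPM, after 55.8 ± 3.54 in RP and 51.7 ± 2.27 in RPT. Nfe2l2, the antioxidant response factor NRF2, fell 1.80-fold. Atf3 and Jdp2 thus rose with the inhibitor, as Jund did, while Jun and Junb fell.

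Genes that act upstream of FOS and JUN transcription were examined as well. Of 12 tested factors known to act on these promoters, 1 rose and 1 fell with thrombin, where 13.6% of all genes rose and 15.2% fell. The median log2 fold change of the 12 was 0.03. Elk3, an ETS factor that works with SRF, was at 72.3 ± 1.36 CPM in RP, 107 ± 6.99 CPM in RPT and 51.9 ± 1.03 CPM in RPTi, the order of Fosl1. It rose 1.47-fold with thrombin (adjusted p = 2.81e-05) and fell 2.06-fold with the inhibitor (adjusted p = 5.46e-08). Mef2c went the other way, falling 1.46-fold and then rising 1.83-fold. Srf itself did not pass in either comparison (log2 fold change -0.05 and 0.16). With the inhibitor 1 of the 12 rose and 6 fell, against 41.5% of all genes changed, and Elk4 was among those that fell (-0.39, SE 0.06). Without RPTi replicate 3 the count that fell was 3.

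Of 21 tested kinases of the ERK, JNK and p38 branches, 1 rose and 1 fell with thrombin, against 13.6% and 15.2% of all genes. The p38 kinase gene Mapk13 (log2 fold change 1.33, adjusted p = 0.0204) had only 0.685 ± 0.188 CPM in RP. Its adjusted p was 0.065 when RP replicate 1 was left out, 0.0639 for RP replicate 3 and 0.0596 for RPT replicate 2, and the list's count was 2 without RPT replicate 3. The p38 activator gene Map2k6 fell from 2.42 ± 0.249 to 0.724 ± 0.195 CPM and was back at 2.02 ± 0.347 CPM in RPTi. The JNK genes Mapk8 (-0.10, adjusted p = 0.679) and Mapk9 (0.06, adjusted p = 0.569) did not pass with thrombin, and with the inhibitor Mapk9 fell (-0.36, adjusted p = 0.00208). In that comparison 4 of the 21 rose, Rps6ka2 (0.72, SE 0.12) among them, and 6 fell, near the 20.4% and 21.1% of all genes. The 6 became 3 without RPT replicate 2 or without RPTi replicate 1.

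Among 11 genes of messenger and protein turnover that act on FOS and JUN, Zfp36l2 rose with thrombin and the ubiquitin ligase gene Itch fell (1 of 11 each, against 13.6% and 15.2% of all genes). With the inhibitor 4 of the 11 fell, against 21.1% of all genes. These counts were fragile: without RPT replicate 1 only 1 of the 11 fell with the inhibitor, and without RPTi replicate 1 or RPTi replicate 3 only 2 did. Itch did not pass with thrombin without RP replicate 1, RP replicate 3 or RPT replicate 2 (highest adjusted p = 0.105), and 2 genes fell without RPT replicate 3. The count that rose was 2 without RPT replicate 2. Zfp36, which speeds the decay of messengers with AU-rich elements such as that of Fos, did not pass in any comparison (-0.06, -0.05 and -0.11 for RPT against RP, RPTi against RPT and RPTi against RP). The rise of its relative Zfp36l2 was 0.66 with thrombin (adjusted p = 0.012) and did not pass without RPT replicate 1 (0.48, adjusted p = 0.0653). Hnrnpd, another protein that binds AU-rich elements, fell with the inhibitor (-0.38, SE 0.07, adjusted p = 0.000877).

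Other immediate early genes gave a background for the low levels of Fos and Fosb at 24 h. Of 19 tested, 9 rose and 2 fell with thrombin, where 13.6% of all genes rose and 15.2% fell. With the inhibitor 5 rose and 8 fell, where the shares of all genes were 20.4% and 21.1%. Phlda1 stood at 11.3 ± 1.82 CPM in plasma alone, at 33.1 ± 1.23 CPM with thrombin and at 4.65 ± 0.739 CPM with the inhibitor. Egr1, which encodes a zinc finger factor, stood at 65.6 ± 3.79, 108 ± 23.5 and 15.9 ± 4.05 CPM. Both took the order of Fosl1. Klf2 was highest in RPTi, at 32.7 ± 5.91 CPM against 11.2 ± 0.499 in RPT (2.93-fold, adjusted p = 3.47e-07). The 2 that fell with thrombin were Klf2 and Arc, and Klf2 did not pass under several alternatives, among them each of those without 1 RP or RPT library (highest adjusted p = 0.113). No immediate early gene of the list fell without RP replicate 1, RP replicate 2, RPT replicate 1 or RPT replicate 3 (0 of 19).

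Genes known as AP-1 targets moved in the direction of Fosl1, Jun and Junb in most cases. Of 22 tested, 19 rose with thrombin and 1 fell, against 13.6% and 15.2% of all genes, with a median log2 fold change of 1.19. With the inhibitor 21 fell, against 21.1% of all genes, with a median of -1.57. The list does not hold every known AP-1 target, so these counts describe the listed genes only. Many of these targets were known from earlier results of these data to respond, so the counts are not independent evidence of AP-1 activity. The stromelysin gene Mmp3 had the largest change of the list, with means of 9.43 ± 0.819 CPM (RP), 183 ± 16.2 CPM (RPT) and 13.1 ± 1.88 CPM (RPTi). Hbegf, which encodes an EGF receptor ligand, rose 2.78-fold and fell 2.21-fold, and the chemokine gene Ccl2 rose 6.25-fold and fell 5.82-fold.

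Against plasma alone the targets divided: 7 of 22 were higher and 10 lower in RPTi, against 11.9% and 12.3% of all genes. Below RP, like Fosl1, were the chromatin protein gene Hmga1 (-2.26, SE 0.11), the osteopontin gene Spp1 (-2.34, SE 0.09), Hmga2 (-1.55), the collagenase gene Mmp13 (-2.08, SE 0.15) and the cyclin gene Ccnd1 (-0.97). Above RP, like Fosl2 and Jund, were among others Plaur, Vegfa and Hmox1. Each of these did not pass under some alternative, such as Plaur without RPTi replicate 2 (0.37, adjusted p = 0.0528). No other target that was higher in RPTi than in RP lost its call under an alternative that tested it. Not passing against RP, as with Jun and Junb, were Ccl2 (0.10, adjusted p = 0.648) and the stromelysin gene Mmp10 (0.30, adjusted p = 0.44). Gja1, a gap junction gene, fell in all 3.

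**Figure D4:**
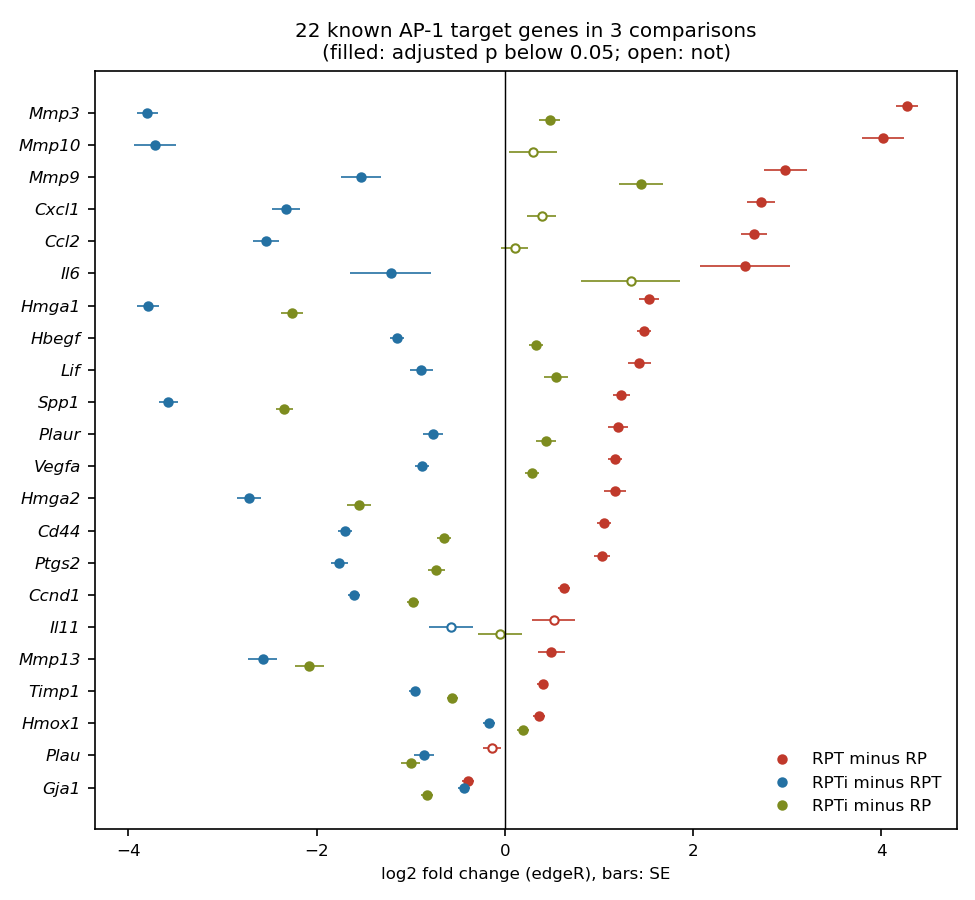
Log2 fold changes with SE of the 22 AP-1 target genes in the 3 comparisons, ordered by the change with thrombin and filled where the adjusted p was below 0.05. Mmp3 lies at 4.27 for RPT against RP and -3.80 for RPTi against RPT.

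The promoter table held 18 promoters for 17 of the 22 target symbols, and 6 (33.3%) had a TRE in the 250 bases before the start, against 4.05% of all 33469 promoters. The genes were listed because they are known AP-1 targets, so the choice itself favours a higher share. The difference is therefore no evidence of AP-1 activity in these data. The elements are shown with 15 bases on each side because they are the DNA element that FOS and JUN dimers bind. Capitals mark the TRE, written TGACTCA or, where it matched on the other strand, as its reverse complement, read on the strand of the gene in build GRCr8.
Mmp3, chr8:12925195-12925231, plus strand: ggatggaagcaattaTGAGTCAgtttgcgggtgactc
Mmp10, chr8:12974631-12974667, plus strand: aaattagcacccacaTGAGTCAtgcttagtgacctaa
Mmp13, chr8:12782748-12782784, plus strand: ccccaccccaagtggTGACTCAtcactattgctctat
Plaur, chr1:89181265-89181301, plus strand: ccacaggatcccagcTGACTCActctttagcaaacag
Gja1, chr20:36302491-36302527, plus strand: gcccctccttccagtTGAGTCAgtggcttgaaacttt
Il11, chr1:78098465-78098501, plus strand: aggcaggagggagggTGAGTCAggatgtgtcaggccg
The element lay at -71 to -65 in Mmp3, -61 to -55 in Mmp10, -66 to -60 in Mmp13, -83 to -77 in Plaur, -58 to -52 in Gja1 and -142 to -136 in Il11. These 6 genes did not move as 1 group with thrombin. Mmp3 (19.3-fold), Mmp10 (16.2-fold) and the urokinase receptor gene Plaur (2.30-fold) rose, and Gja1 fell (-0.39, SE 0.06). The rise of Mmp13 (0.49, adjusted p = 0.0204) was lost when RP replicate 2, RPT replicate 1 or RPT replicate 3 was left out, with adjusted p of 0.0799, 0.0772 and 0.0527. Il11 did not pass (0.52, adjusted p = 0.109). A match is a description of the letters and not a measured binding site.

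Genes with the profile most like each member were found by the root mean square difference of log2 CPM over the 9 libraries, each gene centred on its own mean, among 9345 genes with a symbol and at least 5 CPM (9346 for Fosb). The nearest to Fosl1 were Hmga1 (0.25), the potassium channel gene Kcnn4 (0.26) and Spp1 (0.28), compared with a standard deviation of 1.56 of Fosl1 itself. Hmga1 stood at 176, 509 and 36.8 CPM in RP, RPT and RPTi. Jun was nearest to Ehd4 (0.08), Ttc7a (0.09) and Gypc (0.09), and Junb to Slc23a2 (0.10), Btg1 (0.10) and the clock-related repressor gene Bhlhe40 (0.10). Jund was nearest to the filamin gene Flnc (0.04), Engase (0.06) and the smoothelin gene Smtn (0.06). Flnc stood at 348, 296 and 494 CPM in RP, RPT and RPTi.

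Fosl2 was nearest to Pdlim7 (0.07), Rrp12 (0.07) and the chemokine gene Cxcl14 (0.08). The nearest to Fos was the immediate early gene Nr4a1 (0.21), at 6.38 ± 0.772, 6.83 ± 1.04 and 11.3 ± 2.38 CPM in RP, RPT and RPTi (SD, n = 3), followed by Klf11 (0.23) and Zhx2 (0.25). Nr4a1, unlike Fos, passed against both other groups (0.72 over RPT, adjusted p = 0.00308, and 0.82 over RP, adjusted p = 0.00269), and the difference between the genes was not tested. Fosb, with few counts, had no close neighbour relative to its own standard deviation of 0.25, the nearest being Hivep3 at 0.15.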

How the data were processed

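Whole-number read counts and FPKM values per Ensembl rat gene were deposited by the authors in 1 table, on genome build Rnor_6.0 per the submitters' processing notes. HTSeq 0.11.2, HISAT2 and DESeq2 1.26.0 appear there without roles, and the annotation release and the strand setting of counting were not given in these sources, so reads of antisense or overlapping genes cannot be told apart. No coordinates of that build were used. Counts were filtered with filterByExpr (minimum count 10, minimum total 15), which kept 13856 of 18924 genes, scaled by TMM and fitted in 1 quasi-likelihood model over all 9 libraries (edgeR 4.0.16, R 4.3.3), with Benjamini-Hochberg adjustment over all tested genes. The SE of a log2 fold change was obtained by dividing it by the square root of F, and 95% intervals from that SE. The deposited FPKM values, which carry no TMM factors, entered only comparisons between genes, the totals and shares of the families in each group, and 2 alternatives. Those alternatives were fitted with limma 3.58.1. DESeq2 1.42.0 was another alternative.

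Groups and replicate numbers came from the sample titles. No 2 libraries of a group agreed within sampling noise (chi-square per degree of freedom 5.24 to 28.8). The members and gene lists were chosen with earlier results of these data known. Of the lists, Mrtfb, Ep300 and the markers Cd163, Itgam, Pecam1, Hba-a1, Hbb, Alas2, Ppbp and Cd3e matched no row, Mrtfa, Ccn1, Ccn2 and Cd79a were matched by RefSeq synonyms (Mkl1, Cyr61, Ctgf and Cd79al), and Map2k3 had 2 rows, of which the one with more counts was used. Of 8 blood cell markers 3 matched, with a summed level of at most 0.388 CPM. Named genes were the members, up to 3 called genes per list with the smallest p in RPT minus RP and in RPTi minus RPT, the 3 nearest profiles per member and the 2 most abundant markers per list. A few genes are not reported here and were left out of the lists after their values were seen. Not all of them moved with the majority of their list, so no list's counts show that its pathway moved as a whole. Not all named genes are printed, and others are named where a count or a motif turned on them.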

Additional observations from a re-analysis of the deposited data

How the results depend on the processing

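Across 18 alternatives per comparison (scaling, filter, tool, FPKM, the groups fitted, a replicate block and each library left out), Fosl1, Jun, Junb and Fosl2 passed with thrombin in every one, as did Fosl1, Jun, Junb and Jund for RPTi against RPT and Fosl1, Fosl2 and Jund for RPTi against RP. Counts moved through genes near the threshold. With thrombin 1 member fell (Jund) with no filter, with the replicate block and without RPTi replicate 2, so leaving out libraries gave 0 to 1. For RPTi against RPT, leaving out libraries gave 1 to 2 rising members, the second being Fos without RPT replicate 3. For RPTi against RP, 2 members fell (Jun as well) with library totals alone, with log2(FPKM + 1), with log2(FPKM + 0.1) and with the replicate block. The cause was not tested. The block otherwise raised Fos to a call (RPTi against RP, adjusted p = 0.0414) and gave Jund with thrombin an adjusted p of 0.00163, but same-numbered libraries of different groups did not deviate together (correlations of -0.11 to 0.12, against -0.16 to 0.14 for other numbers), and in 8 of 18 pairings of a library with another group its own number correlated best.

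Signs turned only for differences that had not passed. Without single libraries Fos with thrombin ranged from -0.14 to 0.47, Fosb with thrombin from -0.19 to 0.27, Fosb in RPTi against RPT from -0.11 to 0.35, Fosl2 in RPTi against RPT from -0.080 to 0.058 and Junb in RPTi against RP from -0.0076 to 0.13. Single values were -0.00034 (Fosb without RPT replicate 3), -0.04 (Fosb without RPTi replicate 2), and 0.024, 0.010 and 0.058 (Fosl2 without RPT replicate 1, RPT replicate 2 and RPTi replicate 1). Fosb was at -0.0097 in RPTi against RPT with library totals alone. For the other lists, alternatives were added after the data were seen. AP-1 targets rising with thrombin stayed at 18 to 20 and falling with the inhibitor at 19 to 22, while kinases rising with thrombin ranged from 0 to 3, turnover genes from 1 to 2 and immediate early genes falling from 0 to 2. Fosb had the fewest counts, 23 to 50 per library, and how far depth or the spread between libraries sets its intervals was not tested.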
